A study of Mus musculus with 4 samples.

Results

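The genes described here are 10 mouse genes tied to basal or stem-like cells of the mammary gland. They are Procr, Lgr5, Lgr6, Tspan8, Sox9, Sox10, Id4, Bcl11b, Bnc1 and Trim29. They were chosen by name, through the GENCODE M21 symbols of the deposited identifiers, and are 10 of the 54393 genes in the count table. All 10 were among the 18917 genes kept by the filter on low counts, and the smallest count of any of them in any library was 76. RNA was sequenced from mammary cells of mice with a conditional knockout of ΔNp63 (cKO) and of mice labelled wild type (WT), with 1 library of each genotype at 5 weeks and 1 at 10 days after tamoxifen. ΔNp63, the p63 isoform that lacks the N-terminal transactivation domain, is a transcription factor of basal epithelial cells. The protocol names iK14-Cre; DNp63 f/f mice, in which an inducible Cre recombinase under keratin 14 control can cut floxed ΔNp63 alleles, in the same words for all 4 libraries. It does not say which of these alleles the WT mice carried. Tamoxifen (1.5 mg/ml) was given at puberty, at 4 weeks of age, and its protocol too is worded alike for all 4 libraries. Strain, sex and the number of mice per library are not given in the sources used here, and a gland age in the labels that these times cannot reach was not used. Because Cre expression follows keratin 14, deletion is directed to keratin 14 cells and not to every cell of the sample.

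Sorting removed cells with CD45 (blood leukocytes), CD31 (endothelial cells) or Ter119 (the red cell lineage) on their surface, and each library was made from 100000 cells. Fibroblasts carry none of these. Summed levels of 12 fibroblast markers were 51940 CPM (counts scaled to library size) in cKO and 23640 CPM in WT at 5 weeks, and 26460 and 35860 CPM at 10 days. Col1a1, Col1a2 and Col3a1 made up most of each sum. At 10 days these and Lum were lower in cKO and the other markers higher. The median log2 ratio of cKO to WT over the 12 was 0.85 at 5 weeks and 0.81 at 10 days. Summed levels of 10 general luminal markers lay between 6896 and 9217 CPM in all 4 libraries, so the cells labelled as epithelial were a mixture. Total counts were 34230566 in cKO and 79122250 in WT at 5 weeks, and 31714181 and 33363255 at 10 days. Trp63, the targeted gene, was at 25.5 CPM in cKO and 160.5 CPM in WT at 5 weeks, and at 12.8 and 46.8 CPM at 10 days. This is the direction the labels give. Its log2 fold change of -2.26 (SE 0.267, n = 2 per genotype) had an adjusted p of 0.107. In bulk RNA such as this, fewer cells of a type and less RNA per cell cannot be told apart.

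The mammary gland is a bilayered epithelium, with an inner layer of luminal cells and an outer layer of basal cells that contains contractile myoepithelial cells and, in transplantation assays, most of the cells able to rebuild a gland. p63 is required for basal cells of many stratified and glandular epithelia. Genes in the group have been used in mice as markers of basal stem-like cells (Procr, Lgr5, Tspan8), are receptors that amplify Wnt signals (Lgr5, Lgr6), or encode nuclear regulators of basal and progenitor states (Sox9, Sox10, Id4, Bcl11b). Bnc1 and Trim29 are best known from keratinocytes of stratified epithelia.

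The 10 genes did not behave alike, and none passed the test for genotype. Bnc1, Trim29 and Bcl11b were lower in cKO at both times, and their highest level was in the WT library at 5 weeks. Sox10, Lgr6 and Id4 had their highest level in the WT library at 10 days. Procr and Lgr5 were higher in cKO at both times, and Tspan8 and Sox9 differed by at most 1.19-fold over the 4 libraries. By edgeR's quasi-likelihood test with time point in the model, 0 of the 10 had an adjusted p under 0.05, where 11 of 18917 genes tested, or 0.0581%, did (0.0529% lower and 0.00529% higher in cKO). DESeq2 called 2 of the 10 (Bnc1 and Trim29, both lower) and 3.07% of its genes, limma-voom 0 and 0.153%, and edgeR with no filter on low counts 4 (Procr higher, and Sox10, Bnc1 and Trim29 lower) and 3.71%. In edgeR at an unadjusted p under 0.05 stood 3 of the 10 on the lower side and 1 on the higher side, against 5.8% of all tested genes on each side. For 4 genes (Sox10, Bcl11b, Bnc1, Trim29) both cKO libraries lay below both WT libraries, which held for 23.3% of all tested genes. For 2 (Procr and Lgr5) both lay above, which held for 22.6%. The median log2 fold change was -0.53 over the 10 genes and -0.01 over all tested genes. Whether each library came from different mice is not stated, so every p-value reflects the spread among these 4 libraries alone, part of which may be technical. In the model with time point, a gene's spread is how far its genotype difference at 5 weeks departs from that at 10 days. It is moderated by the spread of all genes. A change of the genotype difference with time thus cannot be told apart from spread among libraries.

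**Figure D1:**
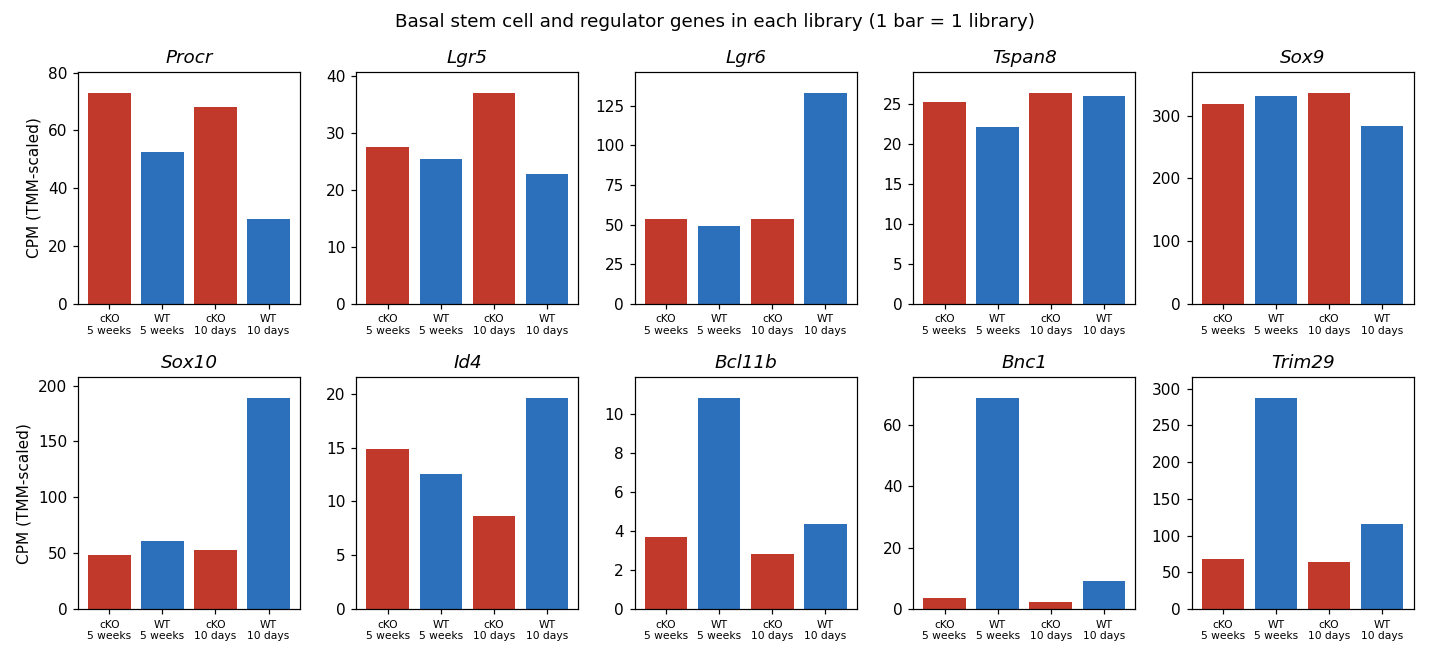
Level of each of the 10 genes (y axis, CPM on TMM-scaled library sizes, from 0) in the 4 libraries (x axis), with cKO in red and WT in blue, and 1 bar per library with no replicate error. Bnc1 reaches 68.6 CPM in WT at 5 weeks and Sox10 188.7 CPM in WT at 10 days, and each stands far below that in the other 3 libraries.

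Among the surface proteins, Procr encodes the endothelial protein C receptor, which binds protein C on endothelium and marks a multipotent basal population in the mouse gland. Procr stood at 72.9 CPM in cKO and 52.4 CPM in WT at 5 weeks, and at 67.9 CPM in cKO and 29.4 CPM in WT at 10 days. Both cKO libraries were above both WT libraries, and the lowest value was that of WT at 10 days. Fitted over both times (n = 2 per genotype), the difference was 0.84 on the log2 scale (SE 0.249), with an unadjusted p of 0.0168 and an adjusted p of 0.337 in edgeR. Within a time point the log2 ratio was 0.48 at 5 weeks (95% exact binomial interval 0.405 to 0.551) and 1.21 at 10 days (1.099 to 1.316). Such intervals cover counting error only, since each ratio compares 1 library with 1 other. Endothelium, which Procr also marks and which the CD31 sort should remove, had its 12 listed markers at a summed 521.5 CPM in cKO and 357.0 CPM in WT at 5 weeks, and at 381.7 and 274.9 CPM at 10 days. None of the 12 was at 0 in any library, and their median log2 fold change was 0.52, with 0 called (2 higher at an unadjusted p under 0.05). Fibroblast markers had a median of 0.66, with 0 of 12 called (4 higher at an unadjusted p under 0.05). Their sum, mostly Col1a1, Col1a2 and Col3a1, was lower in cKO at 10 days. The part of these cells in the Procr values was not tested.

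Other components around the protein C receptor were measured alongside. Of 11 listed genes, 10 were tested and 0 passed (1 on the lower and 2 on the higher side at an unadjusted p under 0.05), with a median log2 fold change of 0.07. Thbd, which encodes thrombomodulin, the cofactor that lets thrombin activate protein C, was at 276.8 CPM in cKO and 172.2 CPM in WT at 5 weeks, and at 247.5 and 93.7 CPM at 10 days. Its libraries took the same order as those of Procr. The log2 fold change of Thbd was 1.04 (SE 0.264, adjusted p = 0.289). F2rl1, which encodes a protease-activated receptor, lay the other way and had the smallest p of the list, at 20.9 and 44.4 CPM at 5 weeks in cKO and WT, and 22.9 and 43.0 CPM at 10 days (log2 fold change -0.997, unadjusted p = 0.00416, adjusted p = 0.241). It was named after its value was seen. Proc itself, which encodes protein C, was at 14.5 and 13.9 CPM at 5 weeks in cKO and WT, and at 11.2 and 9.64 CPM at 10 days.

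Tspan8 encodes a tetraspanin, a membrane organiser found on epithelial cells and, with Lgr5, on a quiescent population of the mouse gland. It was at 25.3 CPM in cKO and 22.2 CPM in WT at 5 weeks, and at 26.4 and 26.1 CPM at 10 days. The 4 libraries lay within 1.19-fold of each other. A log2 fold change of 0.11 (SE 0.22) had an adjusted p of 0.893.

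Lgr5 and Lgr6 encode receptors for R-spondins, secreted proteins that raise the amount of Wnt receptor at the cell surface. Lgr5 is itself a Wnt target in several epithelia. Its level was 27.6 CPM in cKO and 25.5 CPM in WT at 5 weeks, and 37.1 CPM in cKO and 22.8 CPM in WT at 10 days. The highest of the 4 was cKO at 10 days, and the log2 ratio was 0.11 at 5 weeks (interval -0.002 to 0.225) and 0.70 at 10 days (0.569 to 0.833). Over both times it was 0.41 (SE 0.249, adjusted p = 0.592).

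Lgr6 differed from Lgr5 in its profile. Lgr6 was at 53.3 CPM in cKO and 49.4 CPM in WT at 5 weeks, and at 53.3 CPM in cKO and 133.0 CPM in WT at 10 days. Only the WT library at 10 days stood apart, and the other 3 lay between 49.4 and 53.3 CPM. The log2 ratio was 0.11 at 5 weeks (interval 0.029 to 0.191) and -1.32 at 10 days (-1.40 to -1.24). Over both times the genotype estimate was -0.60 (SE 0.401, adjusted p = 0.639), and without the WT library at 10 days, in a fit with no time term, it was 0.11. Lgr4, the remaining receptor of the family and the most widely expressed, was at 50.1 CPM in cKO and 63.1 CPM in WT at 5 weeks, and at 54.3 and 78.1 CPM at 10 days (log2 fold change -0.43, adjusted p = 0.474).

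Of the ligands for these receptors, Rspo1 also stood apart in the WT library at 10 days. Rspo1 was at 3.77 CPM in cKO and 4.15 CPM in WT at 5 weeks, and at 2.83 CPM in cKO and 91.2 CPM in WT at 10 days. Its log2 fold change of -2.58 had an SE of 1.79 and an adjusted p of 0.682. Rspo2, Rspo3 and Rspo4 were below 1.8 CPM in every library. Over the 16 listed genes of R-spondin and Lgr signalling, 15 were tested and 0 passed (2 lower at an unadjusted p under 0.05), with a median log2 fold change of 0.03. The Wnt coreceptor genes Lrp5 and Lrp6, at the highest mean levels of the list over the 4 libraries, were at -0.08 and 0.40 on the log2 scale. Rnf43 and Znrf3, which encode the ubiquitin ligases that R-spondins neutralise, had -0.86 (unadjusted p = 0.00994, adjusted p = 0.3) and -0.58 (adjusted p = 0.443). Axin2, a general Wnt target, was at 21.1 and 17.0 CPM at 5 weeks in cKO and WT, and at 24.2 and 18.4 CPM at 10 days. Notum, a Wnt target whose product inactivates Wnt proteins, had the smallest p of the list and lay the other way at low levels, with 3 and 183 counts at 5 weeks in cKO and WT, and 1 and 21 counts at 10 days (unadjusted p = 0.00059, adjusted p = 0.145). Rnf43, Znrf3, Axin2 and Notum were picked for their link to the receptors and with their values known.

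**Figure D2:**
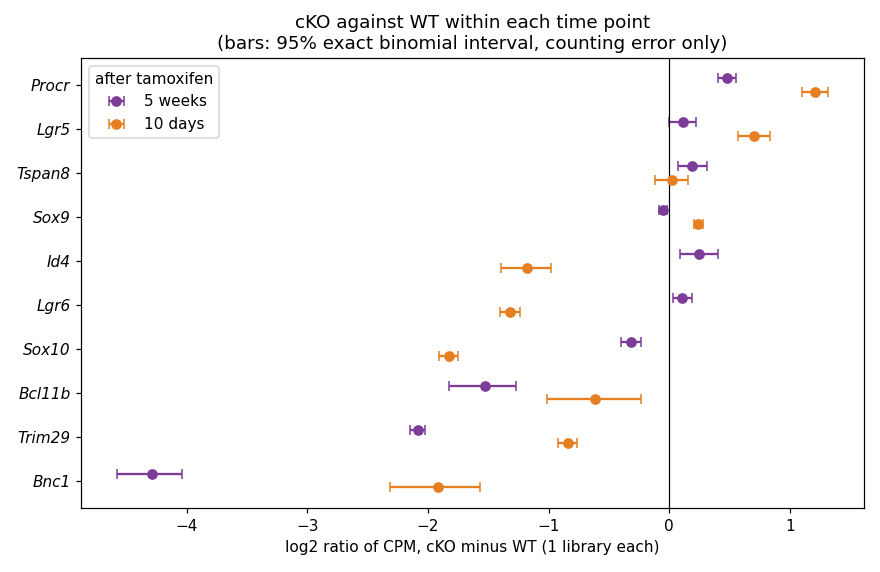
The log2 ratio of CPM, cKO minus WT (x axis), for each of the 10 genes (y axis, ordered by the genotype log2 fold change) at 5 weeks (purple) and 10 days (orange), with 95% exact binomial intervals for counting error only. Bnc1, Trim29 and Bcl11b lie farther below 0 at 5 weeks, while Sox10, Lgr6 and Id4 lie farther below 0 at 10 days, and Procr and Lgr5 lie above 0 at both times.

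The SOX genes encode high mobility group transcription factors. Sox9 is expressed by luminal progenitor and basal cells in the mouse gland, and was the most abundant of the 10 genes in CPM in every library. Sox9 was at 319.6 CPM in cKO and 332.0 CPM in WT at 5 weeks, and at 336.5 CPM in cKO and 284.3 CPM in WT at 10 days. The libraries lay within 1.18-fold of each other, and the genotype log2 fold change was 0.09 (SE 0.24, adjusted p = 0.914). The log2 ratio was -0.05 at 5 weeks (interval -0.087 to -0.022) and 0.24 at 10 days (0.204 to 0.283).

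Sox10, a regulator of neural crest and glia that is also made by mammary progenitor cells, had a different profile. Its level was 48.8 CPM in cKO and 60.8 CPM in WT at 5 weeks, and 53.1 CPM in cKO and 188.7 CPM in WT at 10 days. Both cKO libraries were lower than both WT libraries, by a small margin at 5 weeks, when cKO stood at 0.803 times WT, and a large one at 10 days, at 0.281 times WT. Sox10 had a log2 fold change of -1.07 (SE 0.431), with an unadjusted p of 0.0658 and an adjusted p of 0.462. Without the WT library at 10 days it was -0.26, in a fit with no time term. Sox8, the third gene of the same SOX subgroup, was at most 4.01 CPM, also in WT at 10 days. As Sox10 also marks glia and melanocytes, their markers were read beside it. Summed levels of 12 Schwann cell and glial markers were 390.9 CPM in cKO and 416.6 CPM in WT at 5 weeks, and 376.8 and 355.7 CPM at 10 days. The median log2 fold change was -0.20, with 0 of 11 tested genes called (2 higher at an unadjusted p under 0.05). Erbb3 and Pmp22, which epithelia or fibroblasts also express, made up most of that sum. Ncam1, Prx and Gfra3 were highest in WT at 10 days, as Sox10 was, with Ncam1 at 6.19 CPM in cKO and 7.64 CPM in WT at 5 weeks, and at 3.37 and 13.1 CPM at 10 days. The part of glia in the Sox10 values was not tested. Of 8 melanocyte markers, summing to 63.7 and 31.3 CPM at 5 weeks and 53.0 and 29.6 CPM at 10 days in cKO and WT, 5 were tested and 0 passed (median 0.07, with 1 lower and 1 higher at an unadjusted p under 0.05). Mitf, the melanocyte transcription factor gene that other cells also express, made up most of that sum, at 57.9 and 27.2 CPM at 5 weeks in cKO and WT, and 48.7 and 25.3 CPM at 10 days (log2 fold change 1.02, unadjusted p = 0.00322, adjusted p = 0.236). Oca2 had no count in any library and Tyrp1 at most 0.039 CPM. Luminal progenitor markers summed to 2933 CPM in cKO and 2606 CPM in WT at 5 weeks, and to 3633 and 3594 CPM at 10 days. Their median log2 fold change was -0.14, with 0 of 10 called (1 higher at an unadjusted p under 0.05).

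Id4 encodes a helix-loop-helix protein that binds E proteins and keeps them off DNA, and it marks basal cells in the mouse gland. Id4 was at 14.9 CPM in cKO and 12.5 CPM in WT at 5 weeks, and at 8.63 CPM in cKO and 19.6 CPM in WT at 10 days. The lowest and the highest value were both at 10 days, and the genotypes overlapped. The log2 ratio was 0.25 at 5 weeks (interval 0.092 to 0.407) and -1.18 at 10 days (-1.39 to -0.979). Over both times the estimate was -0.46 (SE 0.417, adjusted p = 0.73). Its paralogs were ordered otherwise. Id3 was at 226.0 CPM in cKO and 168.5 CPM in WT at 5 weeks, and at 289.9 and 102.9 CPM at 10 days (log2 fold change 0.96, unadjusted p = 0.0288, adjusted p = 0.386). Id1 and Id2 had log2 fold changes of -0.19 and 0.32.

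Log2 ratios under -1 at 10 days were found for 4 of the 10 genes (Sox10, Lgr6, Id4 and Bnc1), against 7.45% of all tested genes, and over 1 for 1 of them (Procr), against 7.89%. At 5 weeks 3 were under -1 (Bcl11b, Bnc1 and Trim29), against 6.54%, and 0 were over 1, against 7.78%. The sign of the ratio differed between times for 3 of the 10 (Lgr6, Sox9 and Id4), which held for 39.7% of all tested genes. Of these 3, Lgr6 and Id4 were above 0 at 5 weeks and below 0 at 10 days, as were 19.4% of all tested genes, and Sox9 the other way round, as were 20.4%.

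The promoters of Lgr6 and Id4 are shown because both genes were highest in WT at 10 days, and those of Bcl11b and Bnc1 because both were highest in WT at 5 weeks. Each is the 250 bases before the RefSeq start of the gene (GRCm38.p6), 5′ to 3′ on the gene's strand. They lie at chr1:135105277-135105526 (Lgr6, minus strand), chr13:48260866-48261115 (Id4, plus), chr12:108003415-108003664 (Bcl11b, minus) and chr7:81992300-81992549 (Bnc1, minus). Most of the Bcl11b window lies within the gene as GENCODE M21 annotates it, since the RefSeq start is farther downstream. Capitals mark matches, on either strand, to any of 5 searched motifs, of which only the GC box GGGCGG and the E-box CANNTG occur in these 4, and none in Bcl11b.
Lgr6: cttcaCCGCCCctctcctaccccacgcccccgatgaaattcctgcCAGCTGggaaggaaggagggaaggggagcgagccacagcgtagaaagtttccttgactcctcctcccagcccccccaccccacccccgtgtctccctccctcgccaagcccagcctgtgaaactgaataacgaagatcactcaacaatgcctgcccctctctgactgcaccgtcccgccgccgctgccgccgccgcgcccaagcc
Id4: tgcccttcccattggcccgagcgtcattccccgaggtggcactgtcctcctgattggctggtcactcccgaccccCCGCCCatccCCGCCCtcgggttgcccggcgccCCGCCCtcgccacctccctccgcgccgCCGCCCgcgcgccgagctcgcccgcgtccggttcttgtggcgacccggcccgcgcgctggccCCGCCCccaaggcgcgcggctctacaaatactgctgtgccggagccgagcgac
Bcl11b: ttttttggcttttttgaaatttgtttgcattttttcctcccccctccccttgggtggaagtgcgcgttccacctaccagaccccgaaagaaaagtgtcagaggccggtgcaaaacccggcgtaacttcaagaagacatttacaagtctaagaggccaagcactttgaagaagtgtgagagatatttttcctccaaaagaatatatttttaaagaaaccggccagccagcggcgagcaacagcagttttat
Bnc1: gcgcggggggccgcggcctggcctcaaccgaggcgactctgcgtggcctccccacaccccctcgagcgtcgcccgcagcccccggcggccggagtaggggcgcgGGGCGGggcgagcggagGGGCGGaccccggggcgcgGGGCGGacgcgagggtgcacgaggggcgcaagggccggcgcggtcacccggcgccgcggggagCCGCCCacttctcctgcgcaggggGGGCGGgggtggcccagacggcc
The GC box was found 5 times in each of Bnc1 and Id4, 1 time in Lgr6 and 0 times in Bcl11b, and 32.7% of 32851 mouse promoters of this length hold at least 1. An E-box, the site of the E proteins that Id4 restrains, was found 1 time in Lgr6 and in Procr and not in the other 4 promoters read, and 66.2% of all promoters hold one. A p63-type core pair (CATG or CAAG, then 6 bases of any kind, then CATG or CTTG) was in 0 of the 6 promoters found for the group, and 1.74% of all hold it. The SOX motif ACAAAG was in 1 of the 6 (Tspan8), against 16.5% of all, and the TATA box TATAAA in 0, against 12.4%. The Tspan8 window lies wholly, and that of Procr partly, within the gene as GENCODE M21 annotates it, since their RefSeq starts are farther downstream. GC content was 83.6% in Bnc1, 75.6% in Id4, 65.2% in Lgr6 and 44.8% in Bcl11b, where the median of all was 52.4%. A match of letters is a description and not evidence of binding, and a missing match says only that these letters are not in this window.

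Bcl11b, a zinc finger repressor needed by T cells and tied to quiescent basal cells in the mouse gland, was the least abundant of the 10 per length in every library. Its level was 3.71 CPM in cKO and 10.8 CPM in WT at 5 weeks, and 2.83 CPM in cKO and 4.36 CPM in WT at 10 days. Both cKO libraries were below both WT libraries. Bcl11b had a log2 fold change of -1.09 (SE 0.391, unadjusted p = 0.0346, adjusted p = 0.392). T lymphocytes, which CD45 sorting should remove, also express Bcl11b, and their 12 markers had a summed level of 55.2 CPM in cKO and 30.9 CPM in WT at 5 weeks, and of 55.2 and 38.4 CPM at 10 days (median log2 fold change 1.35, with 0 of 12 called and 9 higher at an unadjusted p under 0.05). Both cKO libraries were above both WT libraries for 10 of them and overlapped WT for Cd3e and Tcf7. Tcf7 was the most abundant, at 12.9 and 12.5 CPM at 5 weeks in cKO and WT, and 15.5 and 16.9 CPM at 10 days. The part of T cells in the Bcl11b values was not tested. Its paralog Bcl11a, also tied to mammary progenitors, was at 4.07 CPM in cKO and 11.2 CPM in WT at 5 weeks, and at 5.45 and 9.26 CPM at 10 days. Bcl11a had a log2 fold change of -1.12 (SE 0.343, unadjusted p = 0.0192, adjusted p = 0.348). Together the 7 listed paralogs had 0 calls (1 lower and 2 higher at an unadjusted p under 0.05) and a median of -0.19.

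Bnc1 encodes basonuclin 1, a zinc finger protein of the basal layer of stratified epithelia and of germ cells. It had the widest range of the 10, with a 28.7-fold spread over the libraries. Bnc1 was at 3.48 CPM in cKO and 68.6 CPM in WT at 5 weeks, and at 2.39 CPM in cKO and 9.14 CPM in WT at 10 days. Both cKO libraries were lower, at 0.0507 times WT at 5 weeks and 0.262 times WT at 10 days. Over both times Bnc1 had a log2 fold change of -3.16 (SE 0.737), or 8.91-fold lower, with an unadjusted p of 0.0163 and an adjusted p of 0.337. The log2 ratio was -4.29 at 5 weeks (interval -4.58 to -4.04) and -1.91 at 10 days (-2.31 to -1.57). Without the WT library at 5 weeks, in a fit with no time term, the log2 fold change was -1.64, and without WT at 10 days it was -4.54. Bnc2, a paralog that fibroblasts also express, was at 10.7 CPM in cKO and 7.03 CPM in WT at 5 weeks, and at 8.81 and 4.41 CPM at 10 days (log2 fold change 0.80, unadjusted p = 0.0469, adjusted p = 0.423).

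Trim29 encodes a tripartite motif protein abundant in basal keratinocytes. Trim29 was at 67.6 CPM in cKO and 287 CPM in WT at 5 weeks, and at 64.5 CPM in cKO and 115.5 CPM in WT at 10 days. The cKO libraries were close to each other and both below WT. Trim29 had a log2 fold change of -1.46 (SE 0.359), or 2.76-fold lower, with an unadjusted p of 0.0107 and an adjusted p of 0.308, the smallest of the 10. The log2 ratio was -2.08 at 5 weeks (interval -2.15 to -2.02) and -0.84 at 10 days (-0.918 to -0.763). Without the WT library at 5 weeks, in a fit with no time term, the log2 fold change was -0.80, and without WT at 10 days it was -2.12.

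Markers of epidermis and hair follicle were read beside these 3 genes. Their sum over 16 genes was 204.9 CPM in cKO and 3730 CPM in WT at 5 weeks, and 147.7 and 746.0 CPM at 10 days. Of 14 tested, 3 were lower with an adjusted p under 0.05 (Krt13, Krt6b and Krtdap) and 0 higher, and the median log2 fold change was -3.27. Both cKO libraries were below both WT libraries for 11 of the 14, while Krt79 and Sbsn were among those that overlapped. Krt79 was at 11.4 and 36.7 CPM at 5 weeks in cKO and WT, and at 7.02 and 1.16 CPM at 10 days, and Sbsn had a log2 fold change of -0.27. At 0 in cKO at 10 days were 3 of the 16, and 1 was at 0 in each of the other libraries. Of 20 basal identity genes, 2 were called lower (Krt15 at -4.03 and Dsg3 at -4.79) and 0 higher, with a median of -1.25. Most contractile genes of that list differed from its keratins, since Acta2, Myh11, Mylk, Cnn1, Actg2 and Oxtr overlapped between genotypes. Their log2 ratios were 0.09 to 0.51 at 5 weeks and -1.82 to -0.31 at 10 days. For Tagln, also contractile, both cKO libraries lay below both WT libraries. Its log2 ratio was -0.01 at 5 weeks and -1.11 at 10 days. Acta2, the smooth muscle actin gene of myoepithelial cells, was at 771.5 CPM in cKO and 690.3 CPM in WT at 5 weeks, and at 624.0 and 1267 CPM at 10 days, its highest level being in WT at 10 days like that of Sox10, Lgr6 and Id4. Krt5 was at 235.8 CPM in cKO and 7826 CPM in WT at 5 weeks, and at 123.0 and 1018 CPM at 10 days. The part of epidermal or basal cell number in the values of Bnc1, Trim29 and Bcl11b was not tested. Against the mean of the basal keratins Krt5 and Krt14 in the same library, all 10 genes were higher in cKO at both times, but so were 99.7% of tested genes at 5 weeks and 98.6% at 10 days.

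**Figure D3:**
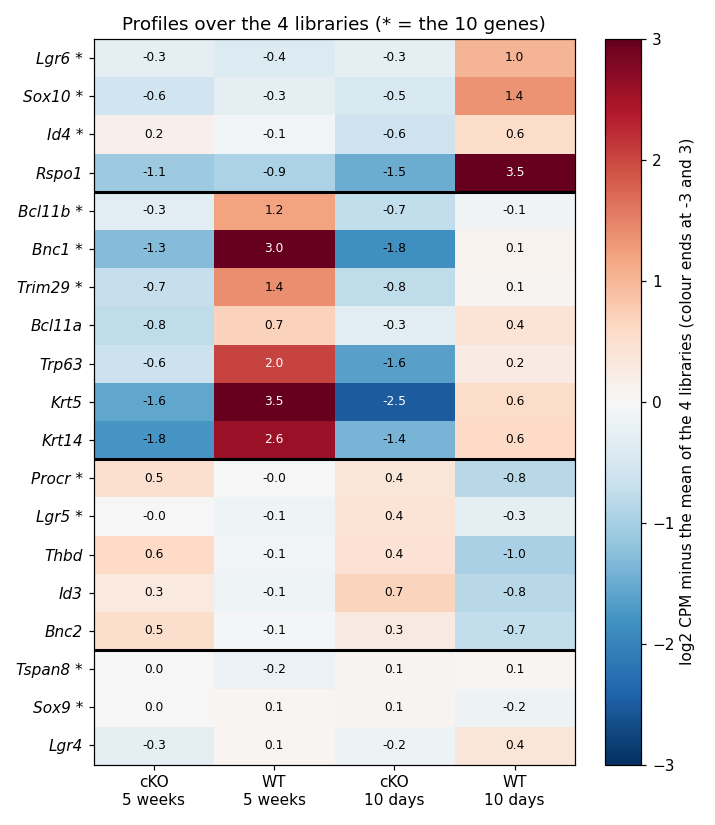
Log2 CPM of each gene minus its mean over the 4 libraries (columns), for the 10 genes (asterisks) and related genes (rows); the blocks were drawn after the values were seen. Lgr6, Sox10, Id4 and Rspo1 are highest in WT at 10 days, Bcl11b, Bnc1, Trim29 and the keratins in WT at 5 weeks, and Procr, Thbd, Id3 and Bnc2 are lowest in WT at 10 days.

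Other genes tied to mammary stem or basal progenitor cells were no more uniform. Of 25 tested, 0 passed, with a median log2 fold change of 0.07. At an unadjusted p under 0.05 were 4 on the lower and 2 on the higher side. The highest mean levels over the 4 libraries were those of Stat3, with a log2 fold change of -0.21, and Itgb1, with 0.07. Jag2, a Notch ligand gene, came nearest the threshold, at 28.3 CPM in cKO and 100.5 CPM in WT at 5 weeks, and at 19.7 and 65.0 CPM at 10 days (log2 fold change -1.78, adjusted p = 0.0969). It was named after its value was seen. Snai2, which encodes the transcription factor Slug, a partner of Sox9 in mouse mammary stem cells, had a log2 fold change of -0.06.

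Levels of different genes were compared per length, as CPM per kb of annotated exon. Sox9 led in 3 libraries, with 77.3 CPM per kb in cKO at 5 weeks, and 81.4 in cKO and 68.7 in WT at 10 days. In WT at 5 weeks Trim29 was at 82.6 CPM per kb and Sox9 at 80.3. Sox10 was at 61.8 CPM per kb in WT at 10 days, close to Sox9, and between 16.0 and 19.9 in the other libraries. Bnc1 held the 5th place of 10 in WT at 5 weeks (14.8 CPM per kb) and the 9th in the other 3 libraries (0.748 in cKO at 5 weeks, and 0.515 in cKO and 1.97 in WT at 10 days). Bcl11b was last everywhere, between 0.349 and 1.33 CPM per kb. In both cKO libraries the first 6 places were, in order, Sox9, Procr, Trim29, Sox10, Tspan8 and Lgr6. There Trim29, Sox10 and Tspan8 lay between 14.9 and 19.5 CPM per kb, and with 1 library per genotype and time the order of such neighbours has no replicate check. With the longest transcript as the length, 5 of the 10 genes kept their place in all 4 libraries.

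**Figure D4:**
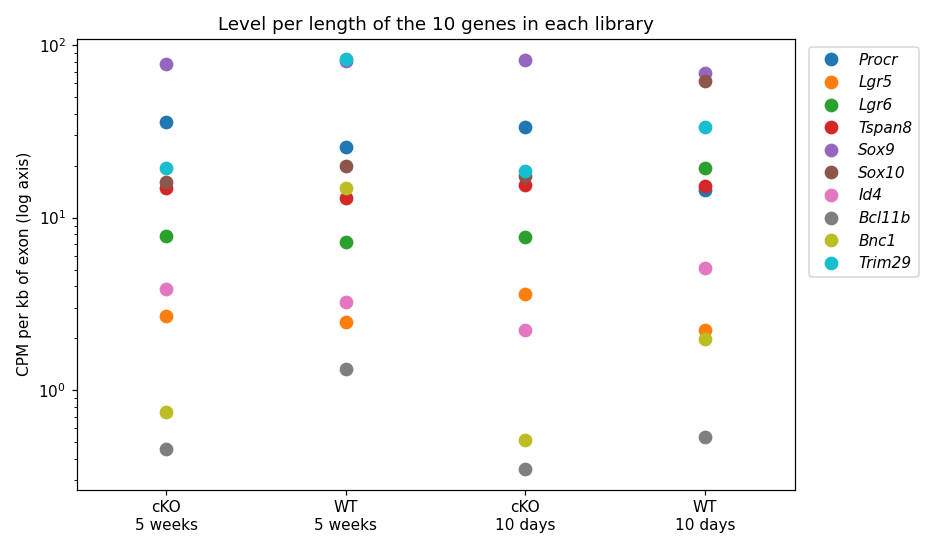
CPM per kb of annotated exon (y axis, log scale) of the 10 genes (colours) in the 4 libraries (x axis), 1 point per gene and library. Sox9 and Bcl11b bound the range in 3 libraries, and Trim29 and Bnc1 stand higher in WT at 5 weeks than in the other libraries.

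Change with time was read from the same model, as 5 weeks minus 10 days, and 0 of the 10 genes passed, where 12 of 18917 tested, or 0.0634%, did (0.0476% lower and 0.0159% higher at 5 weeks). DESeq2 and limma-voom also called 0 of the 10, with 0.879% and 0.206% of all genes, and edgeR with no filter called 2 (Sox10 and Bnc1), with 1.91%. In edgeR at an unadjusted p under 0.05 there were 0 of the 10, against 5.35% of all tested genes (2.27% lower and 3.09% higher at 5 weeks). The estimates ran from -0.88 for Sox10 to 1.81 for Bnc1, with a median of 0.07. They averaged unlike changes in the 2 genotypes. In cKO, 9 of the 10 genes lay within 1.5-fold between 5 weeks and 10 days, Id4 being the exception (14.9 against 8.63 CPM), where 75.8% of all tested genes did. In WT only 3 of the 10 did (Lgr5, Tspan8 and Sox9), where 70.9% of all tested genes did. In WT, the 5-week level was 7.5 times the 10-day level for Bnc1, 2.48 times for Trim29 and for Bcl11b, and 1.78 times for Procr. It was 0.322 times the 10-day level for Sox10, 0.371 for Lgr6 and 0.639 for Id4. With 1 library per genotype and time, no test of this difference between genotypes was possible.

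Profiles of the 10 genes were set against those of abundant protein-coding genes by the distance between their 4 centred log2 CPM values, which with 4 libraries is a description. Nearest to Bnc1 were Calml3 (distance 0.489 in log2 units), Il24 (0.635) and Krt6a (0.643), of which Calml3 and Krt6a stand in the epidermal list. Trim29 was nearest to Lad1 (0.204), Itgb4 (0.218) and Fgfr3 (0.242). Bcl11b was nearest to Srd5a1 (0.212), Cyp2s1 (0.219) and Dennd2c (0.221). For Sox10 they were Wnt5b (0.106), which stood at 17.0 CPM in cKO and 21.9 CPM in WT at 5 weeks and at 17.3 and 65.0 CPM at 10 days, Mex3a (0.122) and Pdgfc (0.172). Lgr6 had the collagen gene Col16a1 (0.02), at 445.2 CPM in cKO and 419.9 CPM in WT at 5 weeks and at 450.4 and 1115 CPM at 10 days, then Kank4 (0.124) and Trim46 (0.125). Id4 had Col23a1 (0.099), Hhat (0.127) and Adgrg3 (0.182), and Procr had Itga7 (0.093), Adam33 (0.094) and Pde1b (0.099). Lgr5 had Esyt3 (0.056), Nod1 (0.057) and the immediate early gene Fosb (0.059). The flat profiles of Tspan8 and Sox9 were nearest to Adcy6 (0.013) and Adam15 (0.024). Within the group, the nearest pairs were Tspan8 with Sox9 (0.323), Lgr5 with Sox9 (0.401), Bcl11b with Trim29 (0.451), Lgr5 with Tspan8 (0.484) and Lgr6 with Sox10 (0.498).

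On GRCm38, as annotated in GENCODE M21, Procr lies on chromosome 2 (155751117 to 155755471), Lgr5 on chromosome 10 (115450311 to 115587780), Lgr6 on chromosome 1 (134983301 to 135105276) and Tspan8 on chromosome 10 (115816832 to 115849893). Sox9 lies on chromosome 11 (112782224 to 112787760), Sox10 on chromosome 15 (79154908 to 79165240) and Id4 on chromosome 13 (48261228 to 48266026). Bcl11b lies on chromosome 12 (107910403 to 108003602), Bnc1 on chromosome 7 (81966672 to 81992292) and Trim29 on chromosome 9 (43310848 to 43336115). All are protein-coding. Exons of Bnc1, Id4 and Tspan8 overlap annotated antisense, noncoding or pseudogene exons on the other strand, and none of these overlapping genes held more than 4 counts in any library.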

How the data were processed

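RNA from sorted mouse mammary cells was sequenced in 4 libraries, and groups were taken from the genotype label. The authors deposited estimated counts per gene, as whole numbers. Salmon and GRCm38 are named, without version or role, per the submitters' processing notes, and the annotation and strand setting are not given in the sources used here. No column belonged to other samples, and all 54393 identifiers matched GENCODE M21. Salmon divides shared reads between transcripts by a model, so counts of close paralogs depend on it.

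Genes were kept by filterByExpr (minimum count 10), leaving 18917 with 99.9% of counts. A robust quasi-likelihood model of time point and genotype, with TMM scaling, was fitted in edgeR 4.0.16 under R 4.3.3 and left 1 residual degree of freedom. Benjamini-Hochberg adjustment covered all 18917 genes, and calls needed an adjusted p under 0.05. Standard errors were derived from the estimate and its F statistic. CPM uses TMM-scaled library sizes. Log2 ratios use a prior count of 2. The time term pairs the libraries of a time point, since the labels give no replicate numbers. The 2 libraries of a genotype, which differ in time point, were not duplicates (chi-square over its degrees of freedom was 103.2 for cKO and 193 for WT). This says nothing on whether their mice were separate. The fit was tested on simulated counts.

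The 10 genes and all lists were chosen with earlier results of these data known. Lists covered paralogs, R-spondin and Lgr signalling, the protein C pathway, other stem or basal progenitor genes, basal identity, and markers of Schwann cells and glia, melanocytes, T lymphocytes, endothelium, fibroblasts, luminal progenitors, hormone-sensing luminal cells, luminal cells, epidermis and hair follicle, mesothelium and cartilage. Named were the 10 genes, Trp63, the 3 nearest protein-coding genes of at least 5 CPM to each, and from each list up to 4 called genes or else the 2 most abundant, with paralogs and ligands. Some listed genes are not reported here. Alternatives were DESeq2 1.42.0, limma-voom (limma 3.58.1), other size factors, no filter, no pairing term and leaving out each library.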

Additional observations from a re-analysis of the deposited data

Results flagged for a closer look

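Of the 10 genes, 3 had log2 ratios of cKO to WT with opposite signs at the 2 time points, as did 39.7% of all tested genes. The difference between time points was not tested, as 1 library per genotype and time leaves no residual for it. Lgr6 had a log2 ratio of 0.11 at 5 weeks and -1.32 at 10 days. Id4 had 0.25 at 5 weeks and -1.18 at 10 days. Sox9 had -0.05 at 5 weeks and 0.24 at 10 days. For Lgr6 the WT library at 10 days was alone in standing apart, and for Id4 both libraries at 10 days lay outside the range of those at 5 weeks.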

How the results depend on the processing

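The number of genes called for genotype, 11 in edgeR, was 5 with DESeq2's size factors, 3 with upper-quartile factors, 29 in limma-voom, 507 in DESeq2 and 1235 with no filter on low counts, and 0 with no time term as block (2182 at an unadjusted p under 0.05). Leaving out 1 library, in a fit without the time term, gave 0 to 61, with 61 without WT at 10 days, 2 without WT at 5 weeks, and 0 without either cKO library (1422 at an unadjusted p under 0.05 without cKO at 10 days and 1173 without cKO at 5 weeks). Of the 10 genes, 0 were called for genotype in edgeR, 2 in DESeq2 (Bnc1 and Trim29), 4 with no filter (these, Sox10 and Procr) and 0 to 2 without 1 library. Called for time were 12 genes in edgeR, 39 in limma-voom, 185 in DESeq2, 638 with no filter, 1 with no genotype term as block and 0 to 19 without 1 library; of the 10 genes, 2 were called with no filter (Sox10 and Bnc1) and 0 otherwise. Why the filter changes so many calls was not tested.

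The genotype estimates of Procr, Lgr5, Sox10, Id4, Bcl11b, Bnc1 and Trim29 kept their sign in all 10 alternatives. Without WT at 10 days, Lgr6 reversed to 0.109 and Sox9 to -0.018, and without WT at 5 weeks Tspan8 reversed to -0.009. Over those that left out 1 library, the range was -4.54 to -1.64 for Bnc1, -2.12 to -0.80 for Trim29, -1.72 to -0.41 for Bcl11b, -1.89 to -0.26 for Sox10 and 0.43 to 1.26 for Procr. For time, estimates reversed without WT at 10 days for Procr (-0.109), Sox9 (-0.039) and Sox10 (0.053), without WT at 5 weeks for Bnc1 (-0.729) and Trim29 (-0.411), and without cKO at 10 days for Lgr5 (0.185). That of Id4 reversed without cKO at 10 days (-0.549) or at 5 weeks (-0.193), in limma-voom (-0.041) and with no genotype term as block (-0.042). Another prior count or DESeq2's size factors moved no log2 ratio within a time point beyond its counting interval. With the longest transcript as length, 5 of 10 genes kept their place in the order.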

Other observations

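Markers of cell types not set beside a single gene above were as follows. Hormone-sensing luminal markers summed to 2174 CPM in cKO and 1883 CPM in WT at 5 weeks, and to 2194 and 1031 CPM at 10 days. Of 9 tested, 0 were called (2 higher at an unadjusted p under 0.05), with a median log2 fold change of 0.47. Mesothelial markers summed to 2.27 CPM in cKO and 3.02 CPM in WT at 5 weeks, and to 1.39 and 8.42 CPM at 10 days (0 of 3 called, median -1.41). Cartilage markers, of interest because Sox9 is a master regulator of chondrocytes, summed to 42.6 and 31.4 CPM at 5 weeks in cKO and WT, and to 21.03 and 55.3 CPM at 10 days (0 of 5 called, median 0.36). Col11a1 and Col9a1 made up most of each sum and, like Col2a1, were lower in cKO at 10 days only. Acan and Comp, at most 1.27 CPM, were higher in cKO at both times. General luminal markers had 0 of 10 called and a median of -0.03, with 1 lower at an unadjusted p under 0.05. That gene was Ehf, with a log2 fold change of -1.54, named after its value was seen.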
